A study of Mus musculus with 18 samples.

Results

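Osteopontin, encoded by SPP1, and the osteoblast lineage genes RUNX2, SP7, DLX5, MSX1, MSX2 and IBSP were followed in murine cultures on Illumina MouseWG-6 v2.0 bead arrays. Every probe that the array table names for 1 of these 7 genes was taken, which gave 13 of its 45281 probes for 7 of the 30854 gene symbols it lists. The 18 arrays fall into 6 groups of 3: embryonic stem (ES) cells co-cultured with PA6 cells (ES/PA6) and mono-cultures of PA6 cells, each collected on day 3 from serum-free medium without growth factors (-GFs), with recombinant FGF2 at 20 ng/ml or with recombinant BMP4 at 10 ng/ml, as labelled. For slide cultures the published protocol used less BMP4, so the sources differ on this dose. PA6 is a mouse stromal cell line of bone origin that can form adipocytes. Both cell types are of mouse, so a probe reads the sum of their transcripts in a co-culture, and fewer cells of a type cannot be told apart from less RNA per cell. The study used these cultures to ask which genes precede endothelial commitment under each factor.

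Osteopontin is a secreted, acidic phosphoprotein of bone matrix that binds integrins and CD44 and is also made by macrophages, osteoclasts and other cells outside bone. RUNX2 is the transcription factor that commits mesenchymal precursors to the osteoblast lineage, and SP7 (osterix) acts downstream of it. DLX5, MSX1 and MSX2 are homeodomain factors of the skull and limb, known as BMP-responsive genes in several tissues, and IBSP (bone sialoprotein) is a mineral-binding matrix protein of mature osteoblasts. Spp1 and Ibsp belong to a cluster of acidic matrix protein genes on chromosome 5, where the RefSeq gene order of GRCm38.p6 reads Sparcl1, Dspp, Dmp1, Ibsp, Mepe, Spp1, Pkd2.

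RefSeq start-site windows, from 250 bases before to 50 after the annotated start, were available for 5 of the 7 genes, and the ones of Spp1 and Ibsp are shown because these cluster neighbours are the bone matrix genes of the set. Capitals mark matches, on either strand, to the RUNX motif TGTGGT, the homeodomain motif TAATTG bound by MSX and DLX factors, the GC box GGGCGG, the AP-1 motif TGANTCA and the TATA motif TATAAA.
Spp1, GRCm38.p6 chr5:104434861-104435160, plus strand: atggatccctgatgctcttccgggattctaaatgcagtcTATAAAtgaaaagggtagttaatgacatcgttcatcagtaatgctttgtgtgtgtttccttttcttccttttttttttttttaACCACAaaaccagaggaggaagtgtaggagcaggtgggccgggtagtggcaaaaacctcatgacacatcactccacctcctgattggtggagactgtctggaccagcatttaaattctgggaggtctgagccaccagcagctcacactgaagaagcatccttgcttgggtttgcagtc
Ibsp, GRCm38.p6 chr5:104299037-104299336, plus strand: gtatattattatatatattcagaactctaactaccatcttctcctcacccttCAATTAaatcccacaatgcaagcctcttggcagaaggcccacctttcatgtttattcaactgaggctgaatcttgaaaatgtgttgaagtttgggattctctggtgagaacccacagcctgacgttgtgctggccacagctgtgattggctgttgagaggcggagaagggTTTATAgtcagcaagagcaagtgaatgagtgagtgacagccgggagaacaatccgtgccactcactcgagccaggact
The Spp1 window held a RUNX motif on the minus strand, with its first base at position -128 from the annotated start, and a TATA motif at position -211. The Ibsp window held a homeodomain motif at position -198 and a TATA motif at position -28, both on the minus strand. No marked motif overlapped another. A second RefSeq window of Spp1, chr5:104435942-104436241, held none of the 5 motifs. Of all 32851 windows of this length, 16.8% held the RUNX motif, 8% the homeodomain motif, 35.7% the GC box, 7.81% the AP-1 motif and 13.6% the TATA motif. A match describes letters in the window and no measured binding.

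Intensities are the deposited, non-normalized bead summaries, and a probe counted as detected on an array where its deposited detection p-value was under 0.05. The number of detected probes lay between 17125 and 20412 per array, the median intensity between 115.4 and 158.7 and the lowest detected intensity between 139.1 and 180.1. Levels for comparison are log2 values after background correction with an offset of 16 and quantile normalization. Of the markers of the cells named in the labels, 5 of 5 tested ES cell genes were higher in ES/PA6 -GFs than in PA6 -GFs and 5 of 6 tested stromal genes were lower. By the same rule, given next, 19.4% of all genes were higher and 19.5% lower. A gene was tested if a probe of it was detected on at least 3 of 18 arrays, and called where limma gave a Benjamini-Hochberg adjusted p under 0.1, over all 16446 genes tested, and an absolute log2 fold change above 1.

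The 7 members split into 1 bright gene, 1 moderate gene and 5 at or under the detection limit. SPP1 was detected on 17 of 18 arrays and MSX1 on 18 of 18. SP7 was detected on 3 arrays and IBSP on 5, each by 1 of its probes. RUNX2, DLX5 and MSX2 were detected on 0 of 18 arrays: the 90 readings of their 5 probes lay between 73.2 and 149.4 in intensity, and the lowest detection p among them was 0.107. Thus 4 genes with 5 probes passed the filter on dim probes and 3 genes were not tested. A level under detection on this array is a limit of the probe and does not show that the transcript was absent.

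**Figure D1:**
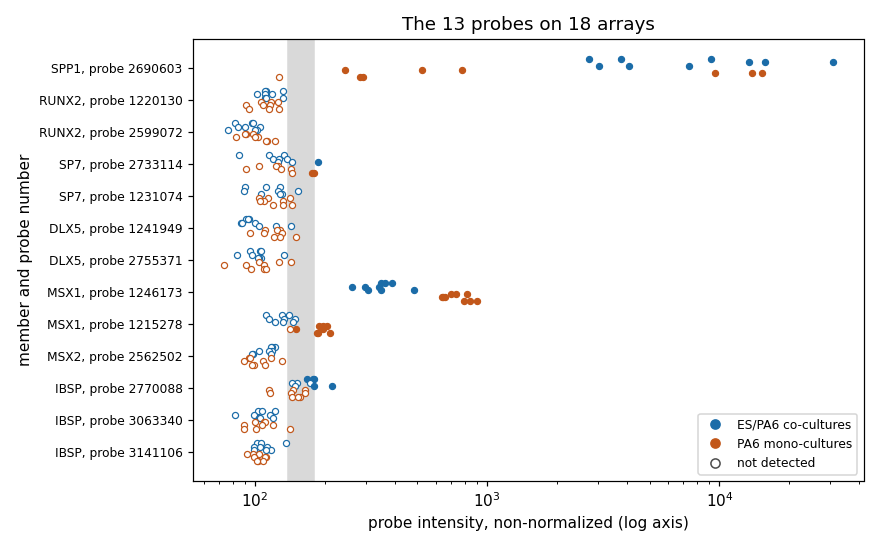
Non-normalized intensity (log axis) of each of the 13 probes on the 18 arrays, blue for ES/PA6 co-cultures and orange for PA6 mono-cultures, with open circles where the probe was not detected and a grey band for the range, 139.1 to 180.1, of the lowest detected intensity per array. Of all 13 probes, only the SPP1 probe and 1 MSX1 probe lie clear of the band on most arrays, and only SPP1 spans from the band to 30850.

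SPP1, the matrix and cytokine gene of the set, had its highest levels under FGF2 in both culture types. Its only probe, ILMN_2690603, read 9237, 2747 and 3779 in ES/PA6 -GFs replicates 1, 2 and 3. Under FGF2 the co-cultures read 30850, 15655 and 13410. Every FGF2-treated co-culture was thus above every untreated one. On the log2 scale SPP1 rose by 1.95 ± 0.59 (SE, n = 3 arrays per group). Its group means were 12.18 ± 0.83 and 14.13 ± 0.54 (SD), a 3.86-fold difference (limma, adjusted p = 0.0613). It was the 1 member called of 4 tested, where 3.34% of all genes tested were called. The FGF2 arrays exceeded the untreated arrays of the same replicate number by 1.66, 2.47 and 1.71. The call was lost without ES/PA6 -GFs replicate 2 (1.58, adjusted p = 0.239), -GFs replicate 3 (1.86, 0.15), FGF2 replicate 1 (1.64, 0.239) or FGF2 replicate 2 (2.05, 0.106).

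In the same co-cultures 2 of 5 tested ES cell markers were also called higher under FGF2, where 2.14% of all genes were. Their summed level was 16580 to 26025 in -GFs and 32259 to 39905 under FGF2. Of the stromal markers 1 of 6 was called lower there, where 1.2% of all genes were, with sums of 27753 to 47215 and 27465 to 34436. Their part in the SPP1 difference was not tested.

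BMP4 left no such difference in the co-cultures. SPP1 read 7385, 3039 and 4076 in ES/PA6 BMP4, values that overlapped those of -GFs. The log2 difference was -0.03 ± 0.59 (95% interval -1.28 to 1.21, limma adjusted p = 0.995). This interval includes falls and rises of more than 2-fold, so equal levels are not shown. Set directly against BMP4, FGF2 gave SPP1 higher by 1.98 ± 0.59 (adjusted p = 0.066), the 1 member called where 2.85% of genes were. That call was lost without ES/PA6 FGF2 replicate 1 (1.67, adjusted p = 0.214) or replicate 2 (2.08, 0.117) and without ES/PA6 BMP4 replicate 2 (1.62, 0.246) or replicate 3 (2.00, 0.125).

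In PA6 cells alone SPP1 was also highest under FGF2, and the fold was larger. In PA6 -GFs the SPP1 probe read 781, 243.9 and 525.4. In PA6 FGF2 it read 15209, 13762 and 9529. The lowest FGF2 array was far above the highest untreated one. SPP1 rose by 5.01 ± 0.59 in log2 units, its mean going from 8.61 ± 0.96 to 13.62 ± 0.31 (SD, 3 arrays each), which is 32.2-fold (limma, adjusted p = 2.25e-05). It was again the 1 member called, where 5.27% of the genes were, and by replicate number the differences were 4.19, 6.35 and 4.49.

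Under BMP4 the mono-cultures read 291, 126.1 and 283.3. The value of replicate 2 was not detected, with a detection p-value of 0.183, and the highest BMP4 array exceeded the lowest of -GFs, so that the groups overlapped. The mean was lower than in -GFs by 1.70 ± 0.59 on the log2 scale, with a 95% interval of the difference from -2.94 to -0.46, but this did not pass the test (limma adjusted p = 0.179). No member was called for BMP4 here (0 of 4), where 1.41% of all genes were, and 2 of 4 had an unadjusted p under 0.05, as had 12.6% of all genes. These 2 were SPP1 and SP7. SP7 passed the filter on dim probes only through BMP4 arrays, so its part in this count is no test of BMP4. For SPP1 the BMP4 array lay under the untreated array of its number in 3 of 3 pairs, by -1.69, -2.06 and -1.36. Without PA6 BMP4 replicate 2, the undetected array, the difference was -1.0, and without PA6 -GFs replicate 2 it was -2.22 and called (adjusted p = 0.0987). FGF2 exceeded BMP4 by 6.71 ± 0.59 (adjusted p = 1.07e-06), in a comparison where 5.82% of genes were called.

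**Figure D2:**
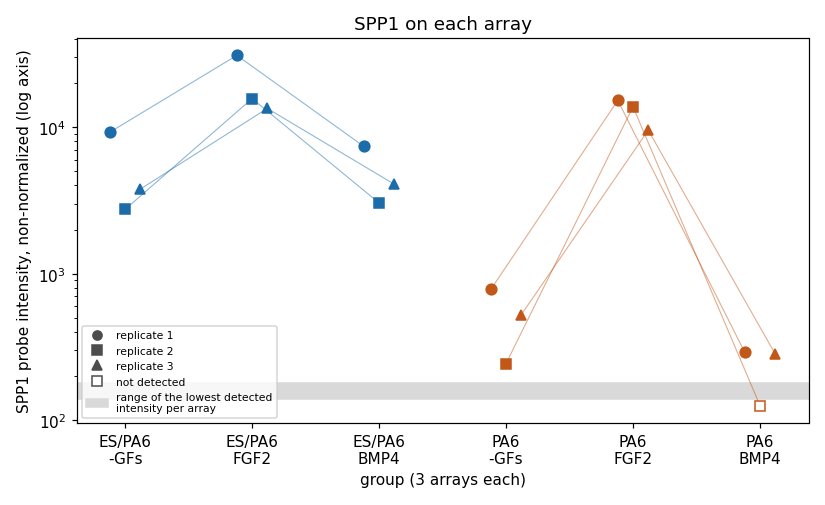
Non-normalized SPP1 intensity (log axis) on each array of the 6 groups, with a symbol per replicate number, thin lines joining equal numbers within a culture type, an open symbol for the array where SPP1 was not detected and a grey band for the lowest detected intensities. FGF2 arrays lie between 9529 and 30850 in both culture types, while untreated arrays differ by culture type, from 2747 to 9237 in ES/PA6 and from 243.9 to 781 in PA6.

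The presence of ES cells was itself accompanied by more SPP1. In -GFs medium, ES/PA6 exceeded PA6 by 3.57 ± 0.59 on the log2 scale, or 11.8-fold (limma, adjusted p = 4.89e-05). SPP1 was called higher and MSX1 lower, 2 of 4 members tested, in a comparison that called 39% of all genes, so that a call here is common. Under FGF2 the culture types were closer, at 14.13 ± 0.54 and 13.62 ± 0.31, a difference of 0.50 ± 0.59 that did not pass the test (adjusted p = 0.461).

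Ordered by mean log2 level, ES/PA6 FGF2 stood first and PA6 FGF2 second, with no difference beyond their spread. ES/PA6 -GFs came next, 1.45 below PA6 FGF2 (adjusted p = 0.0397), then ES/PA6 BMP4, which could not be separated from it. PA6 -GFs was 3.53 below ES/PA6 BMP4 (adjusted p = 5.4e-05), and PA6 BMP4 came last, 1.70 lower still and not past the test. The FGF2 effect differed between culture types by -3.06 ± 0.83 on the log2 scale (interaction, limma adjusted p = 0.0274), being smaller in the co-cultures, and SPP1 was the 1 member called where 7.39% of genes were. On the scale of mean intensities the 2 rises were 14718 ± 5836 and 12316 ± 1711 (SE) and differed by 2401 ± 6082, larger in the co-cultures and within its error. The interaction is thus a difference of ratios that starts from unequal untreated levels. The BMP4 effects differed by 1.67 ± 0.83 (adjusted p = 0.543), and 0 of 4 members were called, where 0.559% of genes were, and 0 of 4 had an unadjusted p under 0.05, as had 9.74% of genes.

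Other sources of osteopontin were looked for through marker lists. Of the macrophage markers, PTPRC, EMR1 and ITGAM were detected on 0 of 18 arrays and LYZS on 1. The 3 that were tested were not called for either factor in either culture type, and their summed level in the mono-cultures was 2369 to 2981 in -GFs, 3646 to 3732 under FGF2 and 3180 to 3838 under BMP4. In the co-cultures the sums were 987 to 1169, 618 to 1157 and 890 to 1374 in the same order. CD14 dominated the sum in PA6 -GFs, with a mean log2 level of 11.29 against 6.86 for CSF1R and 5.42 for CD68. Between culture types in -GFs medium the list split. CD68, a lysosomal protein of macrophages, was detected on 3 of 3 arrays in ES/PA6 and 0 of 3 in PA6 and was at least 4.81-fold higher in ES/PA6 (limma adjusted p = 1.24e-06), the direction of SPP1, while CD14 was called lower. CSF1R was also lower in ES/PA6, with means of 6.26 and 6.86, and was not called. Of all genes 19.4% were called higher and 19.5% lower in this comparison. The part of the macrophage markers in the SPP1 difference between culture types was not tested. CALCR, the calcitonin receptor of osteoclasts, was also detected on 0 arrays, and the 3 tested osteoclast markers were not called for either factor. Their sums were 12703 to 15587, 8576 to 9638 and 7986 to 9190 in the same order of PA6 groups. CTSK dominated them, with a mean log2 level in PA6 -GFs of 13.72 against 6.22 for OSCAR and 5.8 for ACP5.

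Adipocyte markers, on the other hand, moved with the factors in the PA6 mono-cultures. Of 5 tested, 4 fell under FGF2, where 2.56% of all genes were called lower, and 1 rose under BMP4, where 0.839% were called higher. The BMP4 count was 5 of 5 with the replicate number as a block and also in a fit of the PA6 arrays alone. FABP4 was detected on 0 arrays. Their summed level was 10242 to 13332 in PA6 -GFs, 1520 to 1792 under FGF2 and 26538 to 58681 under BMP4. The SPP1 means had the opposite order, but for SPP1 the -GFs and BMP4 groups overlapped and did not pass the test. In the co-cultures 1 adipocyte marker fell under FGF2, where 1.2% of all genes were called lower, and 2 rose under BMP4, where 0.31% were called higher. The adipocyte sums there were 2336 to 4672, 1678 to 1942 and 6380 to 28326 in the same order of groups. These co-culture counts were 3 and 4 with the replicate block, and 0 and 0 in a fit of the ES/PA6 arrays alone. Calls among all genes also moved over the alternative settings. They ran from 125 to 1489 for FGF2 and from 10 to 280 for BMP4 in ES/PA6, and from 113 to 632 for BMP4 in PA6. The block and single-type counts have no share of all genes beside them here, so they are a description only. The part of the adipocyte markers in the SPP1 values was not tested.

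MSX1, a homeodomain repressor of differentiation in craniofacial and limb mesenchyme, differed by culture type. Its brighter probe, ILMN_1246173, read 346.8, 390.2 and 363.3 in ES/PA6 -GFs. In PA6 -GFs it read 733.6, 694.4 and 819.4. Every mono-culture array, with or without a factor, lay at 639.9 or above and every co-culture array at 482.8 or below. MSX1 differed by -1.45 ± 0.22 in log2 units, with means of 7.97 ± 0.31 in ES/PA6 and 9.42 ± 0.10 in PA6 (SD, 3 arrays each, limma adjusted p = 1.79e-05), and this was called in 18 of 18 fits that each left out 1 array. The second probe, ILMN_1215278, was detected on 8 of 9 mono-culture arrays and on 0 of 9 co-culture arrays, with a difference of -1.58 ± 0.20 in the fit of single probes (adjusted p = 3.11e-06). In the same comparison the tested stromal markers had a median of -1.49, and their part in the MSX1 difference was not tested.

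The factors gave MSX1 no called difference. FGF2 co-cultures read 340, 297.3 and 260.1, all below the untreated ones, with a log2 difference of -0.55 ± 0.22 (95% interval -1.01 to -0.09, limma adjusted p = 0.172). The second probe, under detection there, gave 0.05 for the same comparison, so the probes did not show the same difference. In PA6 cells FGF2 gave -0.16 ± 0.22 on the first probe (adjusted p = 0.724) and -0.58 ± 0.20 on the second (adjusted p = 0.0657), short of the fold threshold. BMP4 gave -0.03 ± 0.22 in the co-cultures, with a 95% interval from -0.49 to 0.43, and 0.08 ± 0.22 in PA6, from -0.38 to 0.54, which in both leaves room for differences below 1.5-fold.

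**Figure D3:**
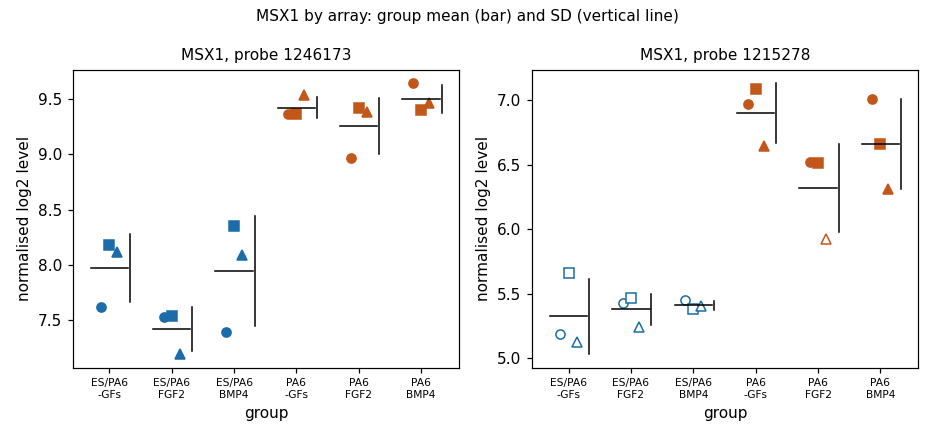
Normalised log2 level of the 2 MSX1 probes on each array (circles, squares and triangles for replicates 1, 2 and 3; blue ES/PA6, orange PA6; open where not detected), with the group mean as a bar and the SD as a vertical line, each panel on its own axis. In both panels the mono-cultures lie above the co-cultures, at means of 9.26 to 9.50 against 7.42 to 7.97 for the first probe.

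SP7, the zinc finger factor of committed osteoblasts, sat at the detection limit and had its highest readings under BMP4. Probe ILMN_2733114 read 144.3, 179.4 and 176 in PA6 BMP4, detected in replicates 2 and 3. In PA6 -GFs it read 104, 125.4 and 123.3, with no array detected. The groups did not overlap. The difference was 0.85 ± 0.24 on the log2 scale (limma adjusted p = 0.0852), alike by replicate number at 0.80, 0.88 and 0.87, but it lay under the fold threshold and SP7 was not called. It passed without PA6 -GFs replicate 2 (1.02, adjusted p = 0.0749) or without PA6 BMP4 replicate 1 (1.03, 0.0594). FGF2 was lower than BMP4 in PA6 by 0.79 ± 0.24 (adjusted p = 0.0358), also short of the fold threshold. SP7 passed the filter on dim probes only through BMP4 arrays, so its BMP4 differences and p-values rest on the values that admitted it. They are given as a description and not as a test of BMP4.

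In the co-cultures SP7 was detected on 1 array, BMP4 replicate 1 at 187.3, and the BMP4 difference was 0.60 ± 0.24 (adjusted p = 0.349). For BMP4 in the co-cultures 0 of 4 members were called, where 0.76% of genes were, and 1 of 4 had an unadjusted p under 0.05, as had 10.9% of genes. That 1 was SP7, which BMP4 arrays alone admitted, so this count is no test of BMP4 either. The other SP7 probe, ILMN_1231074, was detected on 0 arrays and had means of 5.52 in PA6 BMP4 and 5.35 in PA6 -GFs. Signals this close to the background understate a fold change, and no bound on the fold could be set.

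IBSP, the neighbour of SPP1 and its fellow bone matrix sialoprotein, lay at the detection limit and showed no called change. In PA6 cells it was under detection with and without FGF2, so a change below the limit could not be seen there. Probe ILMN_2770088 read 176.7, 178.8 and 166.8 in ES/PA6 -GFs, where it was detected on 3 of 3 arrays. Under FGF2 it read 171.5, 151.6 and 144 and was detected on 0 of 3. After normalization these groups did not overlap, yet the difference of -0.32 ± 0.20 did not pass the test (95% interval -0.74 to 0.10, limma adjusted p = 0.453). BMP4 co-cultures read 179.3, 215.1 and 149.1 (2 of 3 detected), and the mono-cultures lay between 114.8 and 164.7 with 0 of 9 detected. The other IBSP probes were detected on no array. IBSP was called in 0 of the 9 comparisons. It passed the filter only through ES/PA6 -GFs and ES/PA6 BMP4 arrays. Comparisons with those groups thus rest in part on the values that admitted it.

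**Figure D4:**
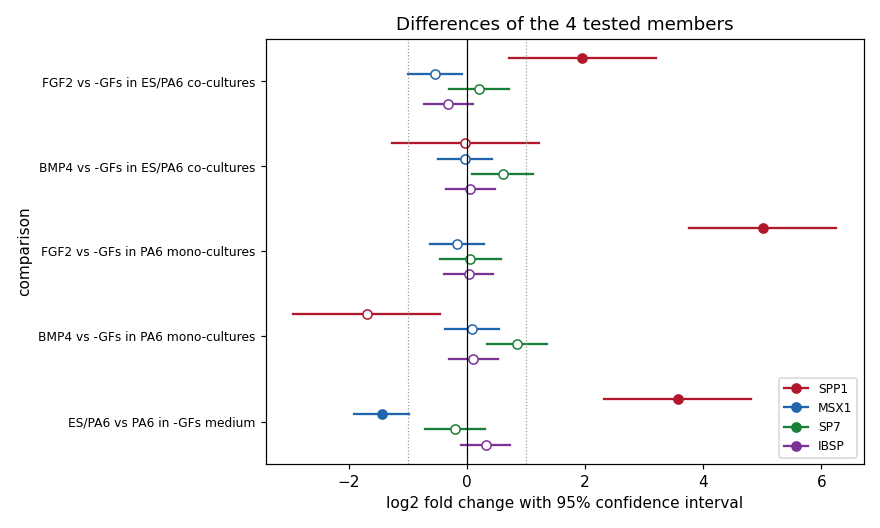
Log2 fold changes (points) with 95% confidence intervals (lines) of the 4 tested members in 5 comparisons, filled where called, with dotted lines at the fold threshold of 1. SPP1 is called in 3 of the 5 and MSX1 in 1, while SP7 and IBSP stay inside or near the dotted lines.

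RUNX2, the lineage's commitment factor, read 90.9 to 132.2 on probe ILMN_1220130 and 76.6 to 122.1 on probe ILMN_2599072. DLX5 read 86.9 to 149.4 and 73.2 to 142.3 on its 2 probes, and MSX2 read 89.3 to 130.2 on its only one. Their readings stayed under detection in every group, BMP4 cultures included. No fold change can be given for these 3 genes. With no filter on dim probes they could be fitted, and 0 of 27 results (3 genes in 9 comparisons) were called.

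Around the members, a list of 35 osteoblast matrix and lineage genes was examined, of which 31 were on the array under the listed symbol and 25 were tested. Of its calls against -GFs, most were for FGF2 in PA6 cells, where 3 rose and 6 fell, while 2.71% of all genes were called higher and 2.56% lower. The median log2 difference was -0.12, against -0.01 over all genes. BMP4 gave 1 higher and 0 lower in PA6 (0.839% and 0.572% of all genes; median -0.17, all genes 0.01). In the co-cultures FGF2 gave 0 higher and 1 lower (2.14% and 1.2% of all genes; median -0.01, all genes -0.01), and BMP4 called 0 of 25 (median 0.12, all genes -0.0035). With the replicate block BGLAP2 was called higher there, by 1.61 (adjusted p = 0.0859). The 6 on the array that were not tested include DMP1 and SOST, genes of osteocytes, both detected on 0 arrays.

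Of the regulators of osteoclast formation, both TNFSF11 (RANKL), the osteoclast differentiation ligand, and TNFRSF11B (osteoprotegerin), its decoy receptor, rose in PA6 under FGF2. TNFSF11 was not detected in PA6 -GFs and on 3 of 3 arrays in PA6 FGF2, where it was at least 3.95-fold higher (means 6.17 and 8.28, limma adjusted p = 0.000167). TNFRSF11B rose by 1.69 ± 0.22 from 6.27 ± 0.48 (adjusted p = 6.96e-05). It was also the 1 gene of the list called for BMP4 in PA6, higher by 2.18 ± 0.22 (adjusted p = 8.72e-05). In the co-cultures neither passed the test, with FGF2 differences of -0.16 and -0.41.

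Among transcription factors RUNX1, a RUNX family member of blood and skeletal precursors, rose by 1.32 ± 0.25 in PA6 under FGF2 (adjusted p = 0.00164). TWIST2, a repressor of osteoblast maturation, fell by 2.32 ± 0.28 there (adjusted p = 3.32e-05). Of the other distal-less genes, DLX6, the partner gene of DLX5, was not called for BMP4 in PA6, at 0.97 ± 0.20 (adjusted p = 0.0168), with 0 of 3 untreated and 3 of 3 BMP4 arrays detected. DLX3 was not called for BMP4 in ES/PA6, at 0.88 ± 0.26 (adjusted p = 0.148), and was detected on 0 mono-culture arrays. Both were chosen for mention after their values were seen. DLX6 passed the filter only through those 3 BMP4 arrays, so its p-value rests on the values that admitted it and is no test of BMP4.

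Matrix genes made up the rest of the falls under FGF2 in PA6. OMD (osteomodulin), a proteoglycan of mineralising bone, fell by 3.16 ± 0.29 (adjusted p = 2.27e-06), with 3 of 3 untreated and 1 of 3 FGF2 arrays detected, and it was the 1 gene of the list called lower by FGF2 in the co-cultures, at least 1.15-fold against the detection limit (adjusted p = 0.0461, 2 of 3 untreated and 0 of 3 FGF2 arrays detected). PHEX, a peptidase that regulates phosphate handling, was at least 1.84-fold lower in PA6 (adjusted p = 4.1e-05). It passed the filter only through PA6 -GFs and PA6 BMP4 arrays, where it was high. Its p-value thus rests in part on the values that admitted it and is given as a description. POSTN (periostin), which exceeded the number of genes to be named and was added after its values were seen, fell by 1.25 ± 0.28 (adjusted p = 0.00587), with 1 of 3 FGF2 arrays detected and a mean near the background, a call lost without PA6 FGF2 replicate 2 (-0.91).

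BGLAP1 and BGLAP2 encode osteocalcin and are near-identical copies, so their probes may share signal. BGLAP1 was at least 1.33-fold lower under FGF2 (adjusted p = 0.0437, 2 of 3 untreated arrays detected), and BGLAP2 fell by 1.41 ± 0.50 (adjusted p = 0.0726). Both calls are uncertain: each was kept in 14 of 18 fits without 1 array. BGLAP1 passed the filter only through -GFs and BMP4 arrays, so its p-value rests in part on the values that admitted it.

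**Figure D5:**
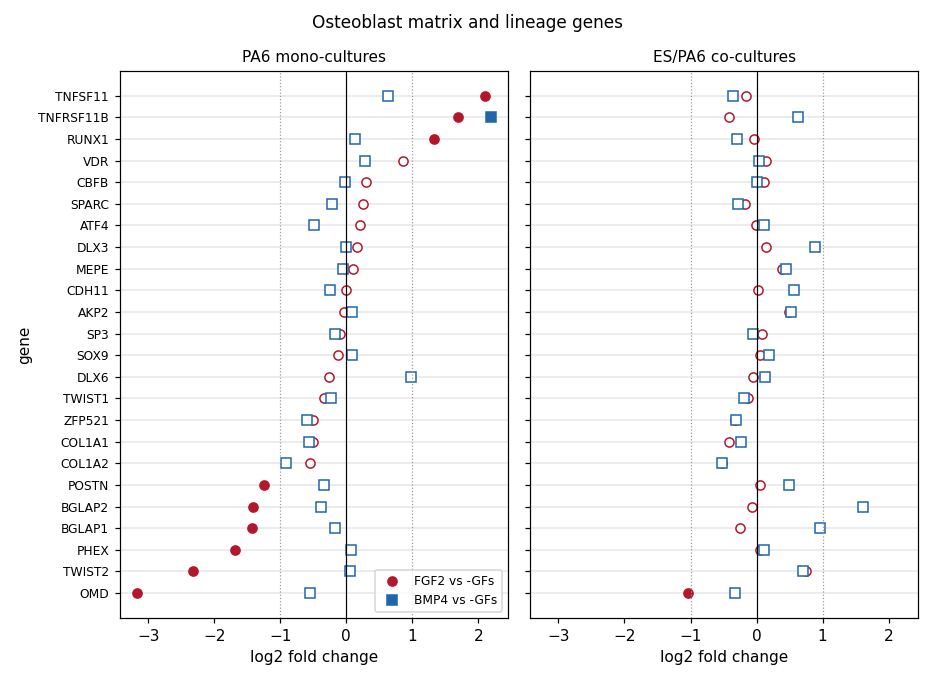
Log2 fold change against -GFs of 24 of the 25 tested osteoblast matrix and lineage genes for FGF2 (red circles) and BMP4 (blue squares), in PA6 mono-cultures (left) and ES/PA6 co-cultures (right), ordered by the FGF2 value in PA6, filled where called, dotted lines at the fold threshold. Filled circles at the left run from TNFSF11 (2.11) to OMD (-3.16), and the 1 at the right is OMD (-1.04).

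Between culture types in -GFs medium, 2 of these 25 genes were higher in the co-cultures and 16 lower, where 19.4% and 19.5% of all genes were, with a median of -1.23 against -0.11 over all genes. Those higher were TNFSF11, at least 2.37-fold (adjusted p = 0.000842), and AKP2, tissue non-specific alkaline phosphatase, by 2.52 ± 0.17 (adjusted p = 2.94e-09), an enzyme of osteoblasts that ES cells also carry. Both are named after their values were seen. SPP1 thus had the same sign as these 2 genes and MSX1 that of the 16.

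Receptors of osteopontin were not called against -GFs. Of 10 integrin and CD44 genes 7 were tested, since ITGB3, ITGB6 and ITGA9 were detected on 0 arrays. None was called for FGF2 or BMP4 in either culture type, where limma gave an unadjusted p under 0.05 for 3 of 7 under FGF2 in PA6, 2 of 7 under FGF2 in ES/PA6, and 1 of 7 for BMP4 in each. Of all genes 26% and 17.8% had such a p for FGF2 in PA6 and in ES/PA6, and 12.6% and 10.9% for BMP4. In these comparisons 0.76% to 5.27% of all genes were called. The median under FGF2 in PA6 was 0.50, against -0.01 over all genes, and the values nearest to the fold threshold were those of ITGA5 (0.98 ± 0.17, adjusted p = 0.000808) and CD44 (0.88 ± 0.23, adjusted p = 0.018). Both are named after their values were seen.

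Of the genes beside members on their chromosomes, 4 of 7 listed were tested (DSPP, MEPE, PKD2 and DLX6). None was called for either factor against -GFs, where 0.76% to 5.27% of all genes were. At an unadjusted p under 0.05 (limma) the counts were 0 of 4 for FGF2 in both culture types, 0 of 4 for BMP4 in ES/PA6 and 1 of 4 for BMP4 in PA6. That 1 was DLX6, which passed the filter only through PA6 BMP4 arrays, so this count is no test of BMP4. Of all genes 17.8% had such a p for FGF2 in ES/PA6, 26% for FGF2 in PA6, 10.9% for BMP4 in ES/PA6 and 12.6% for BMP4 in PA6. With 4 genes these counts cannot be told apart from those shares. PKD2, next to SPP1, differed by -0.45 ± 0.23 under FGF2 in PA6 (adjusted p = 0.235), where SPP1 rose by 5.01.

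Likeness to SPP1 was described by the Pearson correlation of log2 levels over the 18 arrays, which share groups and processing. The 5 most like genes were LOC100048858 (0.94), EGR2 (0.94), CRELD2 (0.93), ETV1 (0.92) and GADD45A (0.92). For FGF2 against -GFs in ES/PA6, where 3.34% of all genes were called, EGR2 was called higher, by 1.61. The log2 differences of the rest were 0.07 (LOC100048858), 0.17 (CRELD2), 0.30 (ETV1) and -0.04 (GADD45A), and none of these was called. A high correlation over all arrays thus did not mean a like FGF2 rise in the co-cultures. For MSX1 the leading genes were KCTD10, LOC621824 and CXX1A (0.98 each), for SP7 PCX (0.84), BC034902 (0.80) and ERRFI1 (0.79), and for IBSP ANKRD11 (0.79), YKT6 (0.75) and MRPL51 (0.73). Since SP7 and IBSP were mostly under detection, their correlations describe values near the background.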

How the data were processed

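Total RNA of 18 cultures was hybridised by the authors as biotinylated cRNA and summarised with GenomeStudio 2011.01, per the labels. The deposited intensity values are non-normalized, 1 per probe and array, each with a deposited detection p-value against negative controls, and the array's genome build is not given in the sources used here. 5 stray lines after the table were left out. No array pair held identical values (0 pairs).

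Intensities were background-corrected by normexp with the detection p-values (offset 16), quantile-normalized and taken to log2 with limma 3.58.1 (neqc, R 4.3.3). Probes detected on at least 3 of 18 arrays were kept (22987), with the brightest probe per gene. The 6 group means were fitted over all arrays (lmFit, eBayes, no block). The array number limits precision: 3 against 3 arrays cannot give a permutation p below 0.1. Replicates are labelled as biological. Within ES/PA6, equal replicate numbers, 1 well per condition in the labels, deviated together (9 pairs, r 0.325 to 0.521), and so pair the arrays. The main fit leaves this pairing out, so its p-values for the co-cultures treat the arrays as unpaired. The scripts were tested on simulated data. Slides are not given, so batch was not tested.

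Named were the 7 members, up to 8 genes per list called against -GFs, the largest changes first, and the 3 genes (5 for SPP1) most like each tested member. 1 tested gene of the osteoblast list is counted but not reported by name. Members and lists were chosen with earlier results of these data known. Alternatives covered normalization, filters, thresholds, the replicate block and each array left out.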

Additional observations from a re-analysis of the deposited data

Results flagged for a closer look

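The response to FGF2 differed between co-cultures and PA6 mono-cultures, by the interaction test in limma, for SPP1 and for 7 of 25 tested genes of the osteoblast list, where 7.39% of all genes were called. Values are the log2 change in ES/PA6 minus that in PA6. For SPP1 it was -3.06 (adjusted p = 0.0274). Genes called higher in PA6 were TNFSF11 (-2.27, 0.00319), TNFRSF11B (-2.10, 0.000541) and RUNX1 (-1.36, 0.0221). Genes called lower in PA6 were TWIST2 (3.06, 0.000181), OMD (2.13, 0.00388), PHEX (1.73, 0.00156) and POSTN (1.29, 0.0482). PHEX and POSTN were under detection on all 9 co-culture arrays, so their difference sets a fall in PA6 against values at the background. PHEX also passed the filter only through PA6 -GFs and PA6 BMP4 arrays, so its p-value rests in part on the values that admitted it. OMD was detected there on 2 of 3 untreated and 0 of 3 FGF2 arrays, so a fall as large as in PA6 could not have been measured. For BMP4 the interaction was called for TNFRSF11B, at -1.56 (adjusted p = 0.0521).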

How the results depend on the processing

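SPP1 was called higher under FGF2 in PA6 and higher in untreated ES/PA6 than in PA6 in every setting that tested it, and its FGF2 interaction in every log-scale one (-3.49 to -2.54); on mean intensities, a comparison chosen after seeing the data, the sign was reversed (2401 ± 6082). MSX1 stayed lower in ES/PA6 (-1.55 to -1.16). The number of members called for FGF2 against -GFs in ES/PA6, and for FGF2 against BMP4 there, was 0 and 0 in place of 1 and 1 with no filter on dim probes (SPP1 adjusted p = 0.102 and 0.111), with trend and robust (0.108 and 0.113) or at an adjusted p under 0.05. With detection on all 18 arrays SPP1 was not tested, for it was undetected on 1, and the counts were 0 for these, 0 for FGF2 and for FGF2 against BMP4 in PA6, 0 for the FGF2 interaction and 1 between culture types. With no fold threshold they were 1 for BMP4 and 2 for FGF2 against BMP4 in PA6, through SP7, which passed the filter only through BMP4 arrays. Leaving out 1 array gave 0 to 1 for FGF2, and for FGF2 against BMP4, in ES/PA6 and 0 to 2 for BMP4 in PA6. A lone pair of arrays then shares the pooled spread. Over all settings that tested SPP1, its limma adjusted p for FGF2 in ES/PA6 lay between 0.00768 and 0.239. For FGF2 against BMP4 there it lay between 0.00803 and 0.246.

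With the replicate number as a block in each culture type, the count for BMP4 in PA6 was 1: SPP1 at -1.70 had an adjusted p of 0.0319. The numbers share little in PA6 (9 pairs, r 0.0628 to 0.164), so only a number may link those arrays. The block changed no other member count. In ES/PA6 it called 89 genes higher and 126 lower for BMP4, in place of 51 and 74, and it turned CFD (-1.58) and CIDEC (-1.45) into calls for FGF2 and CIDEC (2.31), PPARG and BGLAP2 (1.61) for BMP4; the fit of the ES/PA6 arrays alone called no adipocyte marker for either.

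Of all genes tested, 550 were called for FGF2 in ES/PA6 (125 to 1489 over the alternatives, 416 to 661 without 1 array), 125 for BMP4 (10 to 280, 52 to 185), 867 for FGF2 in PA6 (459 to 3083) and 232 for BMP4 (113 to 632). Without background correction PHEX (-0.89), POSTN (-0.66), BGLAP1 (-0.81), BGLAP2 (-0.78) and TNFRSF11B (0.99) in PA6, and OMD (-0.65) in ES/PA6, were under the fold threshold for FGF2. Signal over background limits SP7, IBSP, RUNX2, DLX5 and MSX2; low levels understate fold changes.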
